A study of Homo sapiens with 8 samples.

Results

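The genes described here are IRF1, BACH1 and MAFK, which encode transcription factors of the interferon and stress responses. The members are the listed transcription start sites whose midpoint lay within the GENCODE 44 span of one of these genes or within 1 kb upstream of it. They numbered 4 of the 1249 sites in all, with 2 in IRF1, 1 in BACH1 and 1 in MAFK, and all 4 came from the list of sites found in senescent and not in proliferating cells. The genes were picked because they held such sites, so the presence of a site, its list and its fold describe how the members were chosen and are given without a test.

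IRF1 encodes interferon regulatory factor 1, a factor that interferon-γ induces and that switches on antigen presentation and antiviral genes. BACH1 encodes a heme-regulated repressor of antioxidant genes such as HMOX1, the gene of heme oxygenase. MAFK encodes a small MAF protein, which has no activation domain of its own and binds DNA as the partner of BACH1 or of the activator NRF2. BACH1 and NRF2 thus compete for small MAF partners at the same antioxidant response elements.

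The cells were IMR90, a human lung fibroblast line grown at low oxygen. Replicative exhaustion by serial passage gave the senescent cells, which were kept in culture after growth had ended. PRO-cap, a nuclear run-on assay that reads the capped 5′ ends of nascent RNA, was done on 3 libraries of proliferating cells, 1 at population doubling 23 and 2 at 26, and on 3 of senescent cells, 1 at population doubling 76 and 2 at 67. The 2 PRO-seq libraries were not analysed here. Both states came from 1 line, and the deposited lists hold 1 value per site and none per library, so the spread between libraries is not known for any value here.

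The sequence around the 4 sites is shown because it is what the sites have in common to compare beyond their folds. Each line gives the 200 bases centred on a site, on the + strand of GRCh37, and capitals mark a match to any of the 5 motifs searched.
IRF1 site 1, chr5:131794886-131795085: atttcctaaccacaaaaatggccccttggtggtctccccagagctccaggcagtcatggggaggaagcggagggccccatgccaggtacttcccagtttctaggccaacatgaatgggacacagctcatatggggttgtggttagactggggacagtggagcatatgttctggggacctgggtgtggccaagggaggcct
IRF1 site 2, chr5:131795341-131795540: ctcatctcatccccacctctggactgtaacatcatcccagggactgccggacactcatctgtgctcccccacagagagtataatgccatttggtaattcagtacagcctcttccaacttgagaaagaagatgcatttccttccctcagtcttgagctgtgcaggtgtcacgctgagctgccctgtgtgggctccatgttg
BACH1 site, chr21:30707380-30707579: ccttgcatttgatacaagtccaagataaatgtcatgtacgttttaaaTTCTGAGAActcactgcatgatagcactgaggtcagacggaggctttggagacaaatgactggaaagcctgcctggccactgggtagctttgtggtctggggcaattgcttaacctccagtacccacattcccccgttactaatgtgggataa
MAFK site, chr7:1576540-1576739: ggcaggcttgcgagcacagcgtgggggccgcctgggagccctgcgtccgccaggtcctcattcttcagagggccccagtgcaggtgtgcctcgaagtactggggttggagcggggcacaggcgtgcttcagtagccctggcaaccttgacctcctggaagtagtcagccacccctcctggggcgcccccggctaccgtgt

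The motifs were searched on both strands. AP-1, bound by FOS and JUN family factors, was TGACTCA or TGAGTCA. The core of the antioxidant response element, bound by NRF2 or BACH1 with a small MAF, was TGACNNNGC. The interferon-stimulated element, bound by IRF proteins, was GAAA followed by 2 free bases and GAAA again, the gamma-activated site, bound by STAT factors, was TTCNNNGAA, and the TATA box was TATAAA or TATATA. The BACH1 window held 1 gamma-activated site, TTCTGAGAA, with its centre 49 bases from the middle of the site. The other 3 windows held none of the 5 motifs. Over all 849 senescent-only sites, a gamma-activated site was present in 8.36%, AP-1 in 18.4%, the antioxidant core in 12.6%, the interferon-stimulated element in 3.89% and the TATA box in 14.7%. The shares in the 400 proliferating-only sites were 6%, 10%, 9%, 4% and 14%. A match is a string of letters and not a bound site.

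Base composition set the MAFK site apart in rank. Its GC content was 68%, which 4 of the 849 senescent-only sites exceeded, and it held 11 CpG pairs, a number reached by 9 sites, itself included. The IRF1 windows had GC contents of 57% and 52% with 1 and 2 CpG pairs, and the BACH1 window 46.5% with 3. The median over all senescent-only sites was 45.5% GC and 2 CpG pairs.

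The first question was how strongly the sites were used in each state. Whole reads per state were decoded from the deposited fold of each site, as described with the processing. At IRF1 site 1, senescent cells gave 23 reads and proliferating cells 0. IRF1 site 2 had 61 and 1, the BACH1 site 174 and 4, and the MAFK site 658 and 31. Senescent reads thus ranged over the 4 sites from below the median of the list, which was 32 reads, to the second highest count of the list, where the highest was 908.

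The fold deposited by the authors was 756 at IRF1 site 1, 49.6 at IRF1 site 2, 36 at the BACH1 site and 17.7 at the MAFK site. Their order was the reverse of the order by reads. Among the 849 senescent-only sites, the folds ranked 182nd, 530th, 572nd and 708th, and the read counts 508th, 254th, 52nd and 2nd. The rank by fold depends on the count of 0, because the authors' fold, as decoded, carries a pseudocount of 1. On its scale 1 read is worth 32.8 in senescent and 39.4 in proliferating cells. The pseudocount and this scale were inferred from the folds.

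On scaled reads without the pseudocount, the 23 senescent reads of IRF1 site 1 stood 6.39-fold above a floor of 3 reads, the limit that a count of 0 allows. The lower limit of the 95% interval of its ratio, which takes in the counting error of both counts and uses no floor, was 4.79. The ratio was 50.8 at IRF1 site 2 (95% interval 8.79 to 2041), 36.3 at the BACH1 site (13.9 to 135) and 17.7 at the MAFK site (12.3 to 26.3). These are exact conditional binomial intervals of the counts. They cover counting error only, and the reads are not known to be independent molecules. The list holds no fold below 10.2, and the intervals make no allowance for such a selection. The intervals of IRF1 site 2, the BACH1 site and the MAFK site overlap. The MAFK interval is the narrowest of the 3 and rests on the most reads.

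**Figure D1:**
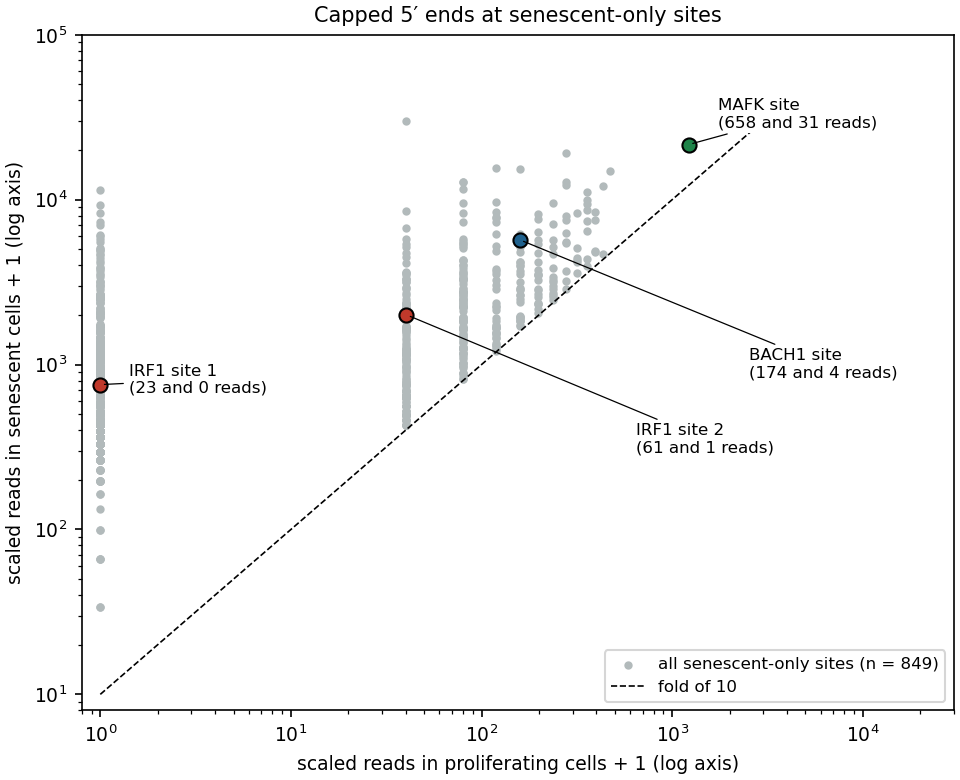
Scaled reads plus 1 in proliferating cells (horizontal, log axis) against senescent cells (vertical, log axis) for the 849 senescent-only sites in grey and the 4 sites in IRF1, BACH1 and MAFK in colour, with the decoded reads in senescent and proliferating cells beside each name. The MAFK site, with 31 proliferating reads, lies to the right of every other site, of which the highest had 12.

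The MAFK site was read in both states. Its 31 reads in proliferating cells were the most of any senescent-only site, and the next highest count was 12. At least 1 proliferating read was present at 379 of the 849 sites, and at least as many as the 4 of the BACH1 site at 11.4% of sites. The name of the list, which says not in proliferating cells, therefore does not mean an absence of proliferating reads at the MAFK, BACH1 and second IRF1 sites. The cutoffs behind the name are not given, and no background level of reads was estimated. Whether the 1 read at IRF1 site 2 and the 4 at the BACH1 site mark starts used in proliferating cells was not tested. The lowest fold in the list was 10.2.

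Where the sites lay was compared with the annotation next. Each gene was described by its widest span over all transcripts and by its MANE Select transcript, the reference transcript agreed between RefSeq and Ensembl. Every site in the lists has + in its strand column, so the strand of transcription is not known, and a start in a gene cannot be told apart from one on the opposite strand.

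IRF1 (ENSG00000125347.15_19), on the minus strand of chromosome 5, spans 131776132 to 131844411, or 68.3 kb, over 50 annotated transcripts. Its MANE Select transcript covers only 9.16 kb, from 131817301 to 131826465. The 2 sites, at chr5:131794911-131795060 and chr5:131795366-131795515, lay 22.3 and 21.9 kb past the 3′ end of that transcript and 31.5 and 31 kb from its start. They were in introns of 2 IRF1 transcripts, IRF1-225, annotated as a target of nonsense-mediated decay, and IRF1-247, which has no defined coding sequence. No IRF1 transcript annotated as protein-coding covered either site.

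The same 2 sites also lay in introns of 5 transcripts of IRF1-AS1, a long non-coding RNA gene on the opposite strand that spans 131746328 to 131824394, and of an unnamed coding gene on that strand, ENSG00000283782, from 131746524 to 131981771. The nearest start of IRF1-AS1 was 39.4 and 39.9 kb away, and that of ENSG00000283782 was 9.64 and 10.1 kb away. The nearest annotated start of any transcript was that of IRF1-221, a short transcript with no defined coding sequence, at 6272 and 6727 bases. By position the sites belong to IRF1-AS1 and ENSG00000283782 as much as to IRF1, and neither lay at an annotated start of an IRF1 mRNA.

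The 2 IRF1 sites were separated by 305 bases and can be read as 1 region from 131794911 to 131795515. Together they held 84 senescent reads and 1 proliferating read, a ratio of scaled reads of 70 (95% interval 12.2 to 2798), and site 2 gave 72.6% of the senescent reads. The nearest coding genes that did not cover them were SLC22A5, a carnitine transporter, at 63.7 kb from site 1, and IL5, a cytokine of eosinophils, at 82.2 kb. Neither gene held a listed site. The next listed sites on either side were 904 kb below the IRF1 span, in RAPGEF6, and 4.63 Mb above it, in SPOCK1.

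BACH1 (ENSG00000156273.16_9), on the plus strand of chromosome 21, spans 30566392 to 31003071, or 437 kb, over 13 transcripts, of which the MANE Select transcript takes 47.2 kb from 30671243 to 30718469. The site at chr21:30707405-30707554 lay within that transcript, 36.2 kb from its start and at 76.7% of its length. It was in intron 4 of 4, 5466 bases from the nearest exon. The nearest annotated start, that of BACH1-208, was 7883 bases away, and no gene other than BACH1 covered the site. No other site of the list lay within 10 kb.

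Just outside the BACH1 span, 30.4 and 30.9 kb below its edge, lay 2 senescent-only sites of MAP3K7CL, named for its likeness to the kinase gene MAP3K7. They had folds of 887 and 17.8, with 27 reads against 0 and 86 against 4. MAP3K7CL also held 1 proliferating-only site. On the other side of the BACH1 site, the nearest edge of the coding gene GRIK1, a kainate receptor subunit, was 202 kb away. That edge lies inside the annotated BACH1 span. GRIK1 held no listed site.

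MAFK (ENSG00000198517.10_9), on the plus strand of chromosome 7, spans 1570338 to 1582679, or 12.3 kb, in 3 transcripts, and its MANE Select transcript covers the whole span. The site at chr7:1576565-1576714 lay in intron 1 of 2, at 51.1% of the gene and 2145 bases from the nearest exon of that transcript. It was 6.3 kb from the MANE start and 483 bases from the start of MAFK-202, a transcript annotated as a target of nonsense-mediated decay. It was the only one of the 4 sites within 1 kb of an annotated start. The nearest start of a protein-coding transcript was 1704 bases away. INTS1, a subunit of the Integrator complex, and TMEM184A, a transmembrane protein gene, lay 32.6 and 5.23 kb away and held no listed site. The nearest other listed site was 389 kb above the MAFK span, in MAD1L1.

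**Figure D2:**
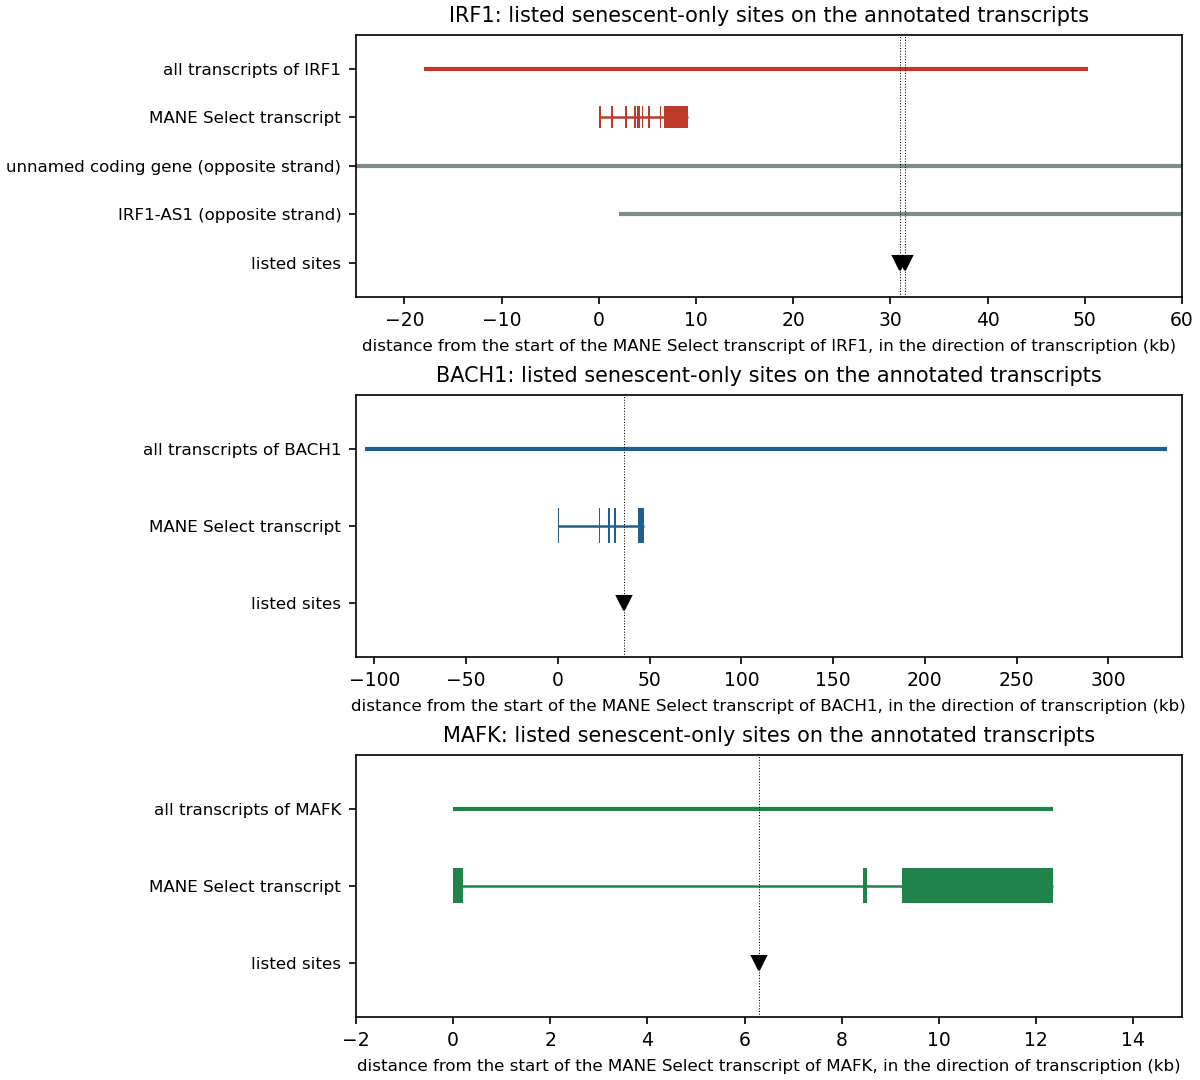
Position of the listed sites (triangles and dotted lines) on the annotated transcripts of IRF1, BACH1 and MAFK, in kb from the start of the MANE Select transcript in the direction of transcription; thin lines are spans, blocks are exons and grey lines are other genes that cover a site. The IRF1 sites lie 31.5 and 31 kb from the start, past the end of the 9.16 kb MANE transcript, and the BACH1 and MAFK sites lie in introns of theirs.

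The share of genes with a site gives the background of these counts. Of 20136 protein-coding genes, 410 held at least 1 senescent-only site, or 2.04%, and 183 held at least 2, or 0.909%. At least 1 proliferating-only site was held by 220 genes, or 1.09%. IRF1, BACH1 and MAFK were chosen from these genes, so nothing is read from their count. The position of the IRF1 sites can be set beside the rest of the list. Of 801 pairs of a senescent-only site and a coding host gene with a MANE Select transcript, 56 (6.99%) had the site outside that transcript and the 1 kb upstream of it, as both IRF1 pairs did.

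The other genes of the pathways were described by the same rule, from lists that were set with earlier results of these data known. They say nothing of expression, because the lists of sites hold only starts that differ. A senescent-only site was held by 2.04% of all coding genes and a proliferating-only site by 1.09%. No result is therefore read from small counts in these lists. Of 14 CNC and MAF factors and their regulator KEAP1, only BACH1 and MAFK held a site, and both were chosen because they held one. NFE2L2, which encodes NRF2, BACH2, MAFF and MAFG held none. Of 31 target genes of NRF2 and BACH1, 0 held a senescent-only site and 1 held proliferating-only sites. That gene was ABCC3, an efflux transporter of organic anions, with 2 intronic sites of 17 and 13 proliferating reads and 0 senescent reads at both (folds 670 and 513). HMOX1, NQO1 and the glutathione synthesis genes GCLC and GCLM held no site of either list.

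Of 12 IRF family genes and IRF2-binding proteins, IRF1 alone held a site, and it was chosen because it did. Of 46 interferon target genes, 0 held a site of either list, beside 2.04% and 1.09% of all coding genes. The median span was 9.7 kb in the IRF list and 19.1 kb in the target list, against 27.2 kb over all coding genes. Nothing is read from either count. Of 29 genes of interferon sensing and JAK-STAT signalling, 2 held a senescent-only site and 0 a proliferating-only site, beside 2.04% and 1.09% of all coding genes. They were IFNGR2, a chain of the interferon-γ receptor, and JAK1, a kinase bound to that receptor. In all, 2 of the 129 genes of the 5 pathway lists other than IRF1, BACH1 and MAFK held a senescent-only site, beside the same 2.04%.

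IFNGR2 held 2 sites, at chr21:34814428-34814577 with 82 senescent and 0 proliferating reads (fold 2692) and at chr21:34814618-34814767 with 103 and 2 (fold 42.4). Both lay 4.68 and 4.87 kb past the end of its MANE Select transcript and within TMEM50B as well. JAK1 held 3. The sites at chr1:65381576-65381725 (165 and 1 reads, fold 134) and chr1:65381750-65381899 (148 and 3, fold 40.8) were intronic, 50.6 and 50.4 kb from the MANE start. The third, at chr1:65448851-65449000 (36 and 1, fold 29.3), lay 16.7 kb upstream of that start, inside the non-coding gene LINC01359. Its window held AP-1 and antioxidant core matches, which 18.4% and 12.6% of all senescent-only sites held. The windows of the other IFNGR2 and JAK1 sites held none of the 5 motifs.

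Both IFNGR2 sites and 1 of the 3 JAK1 sites thus lay outside the MANE Select transcript of the gene that the rule assigns them to, beside 6.99% of all such pairs. With 2 genes, nothing particular to interferon genes is read from this. The labelled cell type could not be checked from the lists. Of 14 fibroblast markers 1 held a site, PDGFRA, a receptor of platelet-derived growth factor, with 10 reads against 0. Of 16 markers of other cell types 0 held one, beside 2.04% of all coding genes with a senescent-only site.

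The RUNX factors, another transcription factor family with sites in the lists, held 4 sites by the same rule. RUNX1 had senescent-only sites with 338 and 9 reads (fold 31.2) and with 177 and 1 (fold 144), and RUNX3 1 with 186 and 0 (fold 6104). RUNX2 held a proliferating-only site with 29 and 0 reads (fold 1143). All 4 RUNX sites lay inside MANE Select transcripts, at least 17593 bases from any annotated start, where the MAFK site was at 483 bases. The highest proliferating count in RUNX1 was 9 reads, against 31 at MAFK. Among all 258 isolated intronic senescent-only sites, to which the BACH1 site belongs, the median was 18 senescent reads (interquartile range 12 to 41.8). The BACH1 site had 174. Isolated here means that no other site of the list lay within 10 kb. The MAFK site was isolated too. It lay within 1 kb of an annotated start and was not classed as intronic, although it was in an intron of its MANE Select transcript.

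**Figure D3:**
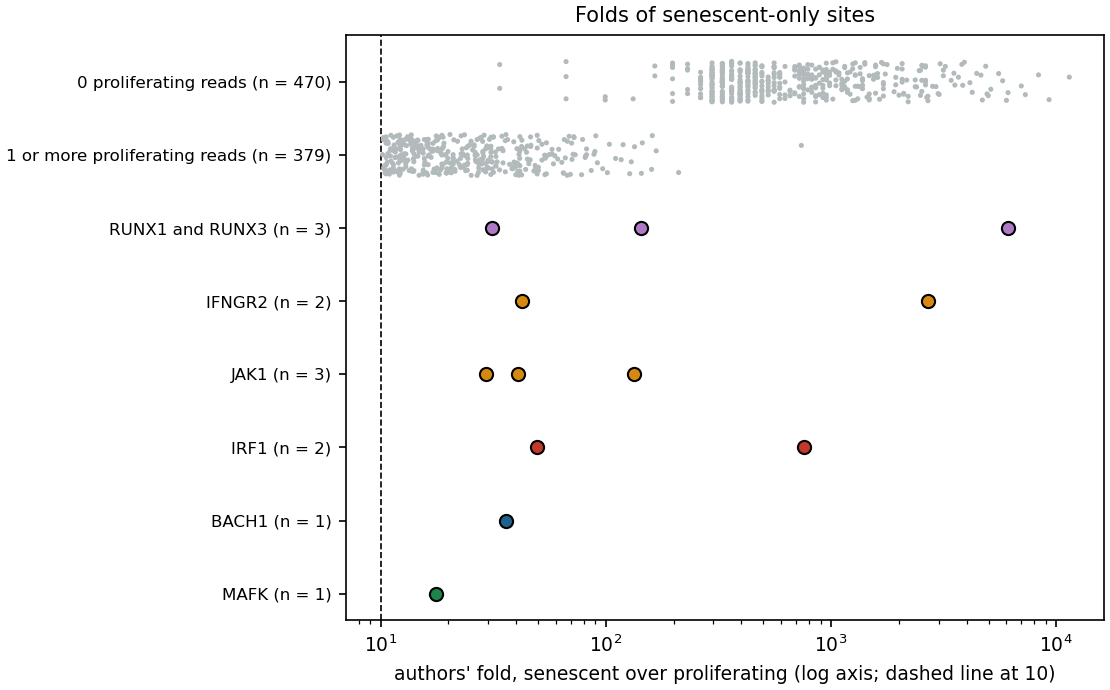
Authors' fold of senescent over proliferating cells (log axis) for all senescent-only sites, split by whether a proliferating read was present, and for the sites of named genes; each point is 1 site and the dashed line marks a fold of 10. The sites of BACH1 (36) and MAFK (17.7) and IRF1 site 2 (49.6) fall among sites with proliferating reads, and IRF1 site 1 (756) among sites with none.

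The sites most alike to each member were found by the distance between log2(scaled reads + 1) in the 2 states. IRF1 site 1 had 12 sites with identical counts, among them 1 in DUSP10, and IRF1 site 2 had 2, in MED15 and in a region shared by KMO and OPN3. The sites nearest to BACH1 were in TRIP13 (189 and 4 reads, distance 0.12) and VPS53 (157 and 4, distance 0.15). The MAFK site had no close match. The nearest, in IRAK2, a kinase of interleukin-1 receptor signalling, had 452 and 12 reads at a distance of 1.47.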

How the data were processed

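IRF1, BACH1 and MAFK and the gene lists were chosen with earlier results of these data known. The authors deposited 4 site lists, of which 2 are copies with identical content. Each site carries a fold between the 2 states, a ratio deposited by the authors; the list's name gives its direction. The submitters' processing notes name BWA 0.7.10, SAMtools 1.1, cutadapt 2.10, bedtools 2.27.1-65, HOMER and hg19, with no role for any tool. The site caller, its cutoffs and the libraries that entered are not given in the sources used here.

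Folds were decoded as (reads × step + 1) / (reads of the other state × step + 1). The added 1 and the step of each state were inferred from the fold values. With steps of 32.8 (senescent) and 39.4 (proliferating), each of the 849 and 400 folds had exactly 1 whole-read solution within 1e-06 of a read, up to 100 reads of the other state. If both states were scaled to 1 total, the senescent data were 1.2 times as deep; the depth of each library is unknown.

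Sites were placed on GRCh37, which shares hg19 coordinates (0 sites lay past a chromosome end), with GENCODE 44. No test was run. Python 3.11.15, SciPy 1.17.1 and pysam 0.24.0 were used. Named are IRF1, BACH1 and MAFK, genes that cover or flank their sites, list genes with a site, the RUNX genes and the hosts of the 2 most alike sites; list genes with no site were named after their values were seen. Some genes that this rule names are not reported here.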

Additional observations from a re-analysis of the deposited data

How the results depend on the processing

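No paired analysis was possible because each site has a single value over both states, and for the same reason no replicate could be left out. Of 53 values under alternatives, 44 stayed, 0 changed direction and 9 moved. A value stayed if it was within 1.5 times the value reported or, for folds, if that value lay within its interval. Counts and distances have no direction to change, and many of the 44 were counts of 0 that stayed at 0. The tally thus does not measure how firm the results are. The count of 4 senescent-only sites fell to 2 with the span of protein-coding transcripts and to 2 with the MANE Select transcript, since both IRF1 sites drop out, and the IRF family count fell from 1 gene to 0 with protein-coding transcripts. Only 1 of the 4 sites remained among sites with no proliferating read. The fold of 756 at IRF1 site 1 became 6.39 against a floor of 3 reads. With protein-coding transcripts only, the nearest start was at 9642 and 10097 bases from the IRF1 sites. That start belongs to ENSG00000283782 on the opposite strand and not to IRF1. For the MAFK site the nearest such start was at 1704 bases. In windows of 400 bases 1 site, that of MAFK, held an antioxidant core, 110 bases from its middle. The share of all senescent-only sites with such a core was not counted in windows of that width. In the narrower windows used for the main results it was 12.6%, so nothing particular to MAFK is read from this match. Depth limits IRF1 site 1 most, with 23 reads.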
